A study of Homo sapiens with 16 samples.

Results

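The 31 genes described here make cholesterol from acetyl-CoA, sense it, move it within the cell or belong to fatty acid synthesis under the same control. They were listed by symbol, and all 31 were found among the 60671 genes of a deposited gene count table, of which 60401 carried a symbol. All 31 also passed the filter on low counts. The counts were made from RNA-seq of HEK293, a human cell line derived from embryonic kidney, in 16 libraries that form 8 groups of 2. In 6 groups the cells had received a pcDNA3.0 plasmid carrying a cloned transcript of LINC01016, a long non-coding RNA gene of testis, and these transcripts are CU1, CU1ENC, CU1ENU, CU2, T1 and T2. In that vector the insert is driven by a viral promoter. A further transfected group had received the empty vector, and all were set against parental HEK293 cells. Transfection was transient: 5 µg of plasmid went into each 60 mm plate with Lipofectamine, and cells were collected after 48 h. All 7 transfected groups therefore share plasmid DNA and, per the labels, the lipid reagent. The labels do not describe how the parental cells were handled, nor which share of cells took up plasmid. In bulk RNA, fewer cells of a type and less RNA per cell cannot be told apart. The labels number the libraries of each group 1 and 2 and do not state separate cultures, so p-values measure only how far these libraries differ, and that spread may be technical.

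Cells build cholesterol by condensing acetyl-CoA into mevalonate, joining the resulting isoprenoid units into squalene, folding squalene into lanosterol and trimming lanosterol to cholesterol. Most of these enzymes are transcribed under SREBP2, the product of SREBF2, while SREBP1, the product of SREBF1, acts more on fatty acid synthesis. Both factors are held in the endoplasmic reticulum by SCAP and the INSIG proteins when sterols are plentiful, and are released to the nucleus when sterols fall.

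Library totals lay between 15040770 and 17255935 counts. The targeted gene separated the transcript libraries from the others. LINC01016 had 0 or 1 count in each of the 4 empty vector and parental libraries. It took 0.26% to 1.23% of all counts in the 12 transcript libraries. A count per gene does not tell the transcripts apart, nor empty vector from parental cells. HEK293 markers, 12 genes such as VIM and KRT18, were all at 10 counts or more in every library, and of 9 markers of blood, vessel, fibroblast and liver cells only COL1A1 reached that level, with HBG1 at 0 throughout. CPM are counts scaled to a library of 1000000, by library total alone for the interferon sum and with TMM factors for later values. The summed level of 8 interferon-stimulated genes was 108 to 795 CPM in the 7 number 2 transfected libraries and 746 to 2123 CPM in the 7 number 1 transfected libraries. This sum was 48.1 and 34.9 CPM in parental number 2 and number 1. It thus moved both with transfection and with the replicate number, and its part in the results below was not tested. Mitochondrially encoded genes took 1.32% to 1.75% of counts in the number 2 and 1.62% to 2.28% in the number 1 transfected libraries, against 1.15% and 2.42% in parental number 2 and number 1, and their part was not tested either.

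Per length, the pathway was expressed at very different levels. HMGCS1, which makes HMG-CoA, was the highest member, with a median of 358.5 TPM (transcript abundance per length) in the transfected and a mean of 423 TPM in the parental libraries. SCD, which desaturates stearoyl-CoA, followed in parental cells at 400.4 TPM, against a median of 254 TPM in transfected cells. The fatty acid synthase FASN (225 TPM transfected, 224 TPM parental) and the cytosolic acetyl-CoA source ACLY (346 and 344 TPM) were also high. The INSIG pair differed: INSIG1 stood at 136.5 TPM in transfected and 210 TPM in parental libraries, whereas INSIG2 stood at 28.6 and 37.97 TPM. Of the SREBP genes, SREBF2 was at 136 TPM in transfected and 157 TPM in parental libraries, and SREBF1 at 8.85 and 12.7 TPM. ABCA1, the cholesterol exporter, was near the limit of counting, with 1 to 12 counts in each library, and nothing can be read from its folds at this depth. CYP51A1, the lanosterol demethylase, shares 80.6% of its exonic bases with a second annotated gene on the same strand, ENSG00000285772, which was at 0 in every library. The recorded counting command names no option that counts reads lying in both genes, so its 128 to 245 counts cover only part of its exons. EBP likewise shares 36.4% of its exonic bases with ENSG00000286268. FDPS, HSD17B7 and CYP51A1 have pseudogene copies whose reads could be mixed with theirs.

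RefSeq promoter windows of GRCh38.p14, from 250 bases before to 50 bases after each start, were matched to 27 of the 31 members by symbol (35 windows). ACAT2, FDFT1, SQLE and FASN were not matched. The letters of a core sterol regulatory element, TCACNCCAC on either strand, occurred in 1 of the 35 windows (2.86%), against 1.13% of 35116 promoter windows of the table. CCAAT, the letters bound by NF-Y, a usual partner of SREBP, occurred on either strand in 62.9% of the member windows and in 34.6% of all windows. GGGCGG, the letters of an Sp1 site, occurred on either strand in 91.4% of member windows and 45% of all windows, and it can share its first GG with ATTGG. A match is a run of letters and not a site. Member windows and all windows were not matched for expression or base content, and windows of the same gene can overlap. Shown next are the 200 bases before the start for SREBF2, the holder of the core element, and for HMGCS1, STARD4 and LBR, the members of lowest p between replicate numbers. HMGCS1 has 2 RefSeq starts, of which the upstream one is shown. Capitals mark CCAAT or its reverse ATTGG, and the core element.
SREBF2 (chr22:41832905-41833104, plus strand): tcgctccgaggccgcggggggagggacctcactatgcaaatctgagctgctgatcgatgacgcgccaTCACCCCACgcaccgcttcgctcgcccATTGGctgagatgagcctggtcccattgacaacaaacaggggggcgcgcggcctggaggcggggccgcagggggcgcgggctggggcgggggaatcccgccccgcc
HMGCS1 (chr5:43313413-43313612, minus strand): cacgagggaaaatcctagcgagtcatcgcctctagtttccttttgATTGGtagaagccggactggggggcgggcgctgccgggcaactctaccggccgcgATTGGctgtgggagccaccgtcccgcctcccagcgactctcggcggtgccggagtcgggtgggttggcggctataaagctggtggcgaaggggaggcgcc
STARD4 (chr5:111512536-111512735, minus strand): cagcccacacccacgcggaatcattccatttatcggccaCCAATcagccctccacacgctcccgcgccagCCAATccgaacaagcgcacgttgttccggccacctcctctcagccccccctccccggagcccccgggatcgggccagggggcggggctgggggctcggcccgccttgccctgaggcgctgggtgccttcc
LBR (chr1:225428822-225429021, minus strand): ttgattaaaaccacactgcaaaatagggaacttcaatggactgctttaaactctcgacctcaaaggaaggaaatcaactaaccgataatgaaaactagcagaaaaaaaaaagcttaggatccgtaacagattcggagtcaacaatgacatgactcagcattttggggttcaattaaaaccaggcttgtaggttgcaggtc
In the SREBF2 window the core element begins 133 bases before the start, followed by 1 ATTGG. HMGCS1 and STARD4 hold 2 CCAAT letters each in either direction and no core element as spelled here, and the LBR window holds neither.

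The first comparison asked how the pathway stood in transfected cells, taken as the mean of the 7 groups, relative to parental cells. It fell at points from mevalonate to the end products: 12 of the 31 members fell and 0 rose by edgeR's quasi-likelihood test (adjusted p under 0.05 over 19316 genes). Over all genes tested, 14.3% fell and 15.4% rose. The median log2 fold change was -0.24 over the members and -0.004 over all genes tested. The member median rested largely on 1 parental library: it was -0.07 without parental number 2 and -0.38 without parental number 1. With the replicate number as a block, 17 members fell and 2, DHCR7 and NPC1, rose, while the calls over all genes went up as well, to 8826 with the block against 5744 without it. The falls that passed only with the block were those of INSIG1 (adjusted p = 0.0359), SREBF1 (0.0394), MVD (0.0250), LBR (0.0108) and SC5D (0.0134). By role, the members that fell were 2 of 7 of the mevalonate arm, 3 of 3 from squalene to lanosterol, 2 of 9 from lanosterol to cholesterol, 2 of 5 SREBP regulators, 2 of 4 sterol transport genes and 1 of 3 fatty acid genes. The changes were small: the farthest, that of TM7SF2, left it at 0.51 of the parental level.

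**Figure D1:**
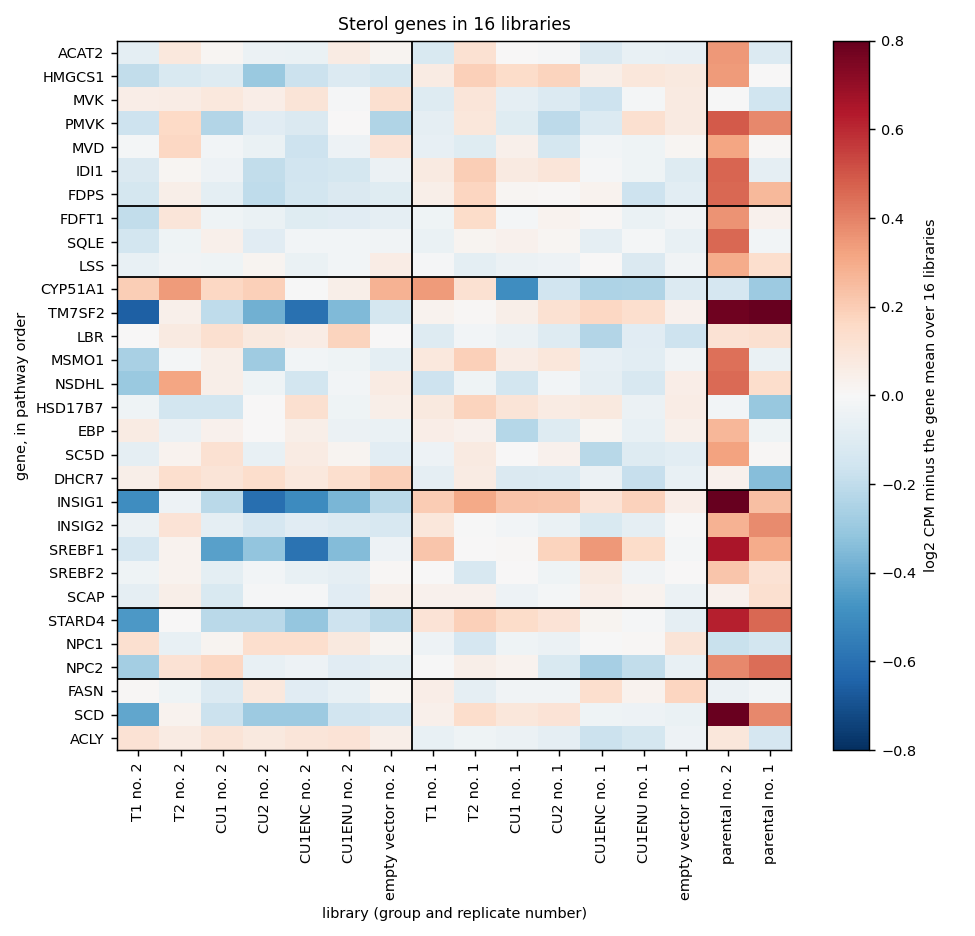
Each cell is the log2 CPM of a gene (down the page, in pathway order) in a library (across), minus that gene's mean over the 16 libraries; ABCA1 is left out for its low counts and colours end at 0.8 either way. Blue marks lower and red higher values: the number 2 transfected libraries stand at the left, the number 1 transfected libraries in the middle, and the parental libraries at the right, where parental number 2 was above parental number 1 in 23 of the 31 members.

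In the mevalonate arm 2 of the 7 members, PMVK and FDPS, fell. PMVK, phosphomevalonate kinase, had 17.6 to 23.2 CPM with a median of 19.4 in the 14 transfected libraries, against 29.1 and 26.99 CPM in parental number 2 and number 1 (log2 fold change -0.50 ± 0.09 SE, adjusted p = 0.000777). All 14 transfected values lay below both parental values. FDPS, which makes farnesyl diphosphate, had 127.5 to 166 CPM with a median of 139 in transfected libraries, against 201.8 and 176 CPM in parental cells (-0.41 ± 0.08, adjusted p = 0.00120). Its 14 values also lay below both. HMGCS1 had 499 to 699 CPM with a median of 603 in transfected libraries, against 778 and 616 CPM in parental number 2 and number 1, and did not pass (-0.20 ± 0.13, adjusted p = 0.272). Its lower parental value lay inside the transfected range. The remaining members of the arm did not pass: the thiolase ACAT2 (-0.15 ± 0.09), mevalonate kinase MVK (0.09 ± 0.09), the decarboxylase MVD (-0.19 ± 0.09) and the isomerase IDI1 (-0.25 ± 0.11).

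The squalene steps all passed as lower, with overlap in part. Without parental number 2 the fold changes were -0.07 for FDFT1, -0.02 for SQLE and -0.17 for LSS. LSS, which folds squalene epoxide into lanosterol, had 80.1 to 90.5 CPM with a median of 85.02 in transfected libraries, against 107 and 95.4 CPM in parental number 2 and number 1 (-0.25 ± 0.06, adjusted p = 0.00591). The 2 groups of values did not overlap. FDFT1, squalene synthase, had 114 to 144 CPM with a median of 127 in transfected libraries, against 167.5 and 133.5 CPM in parental cells (-0.24 ± 0.07, adjusted p = 0.0273), and SQLE, squalene epoxidase, 112 to 127 CPM with a median of 122, against 170 and 122 CPM (-0.27 ± 0.09, adjusted p = 0.0287). For both enzymes parental number 2 was above all transfected values and parental number 1 was within their range.

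Between lanosterol and cholesterol TM7SF2, a sterol C14 reductase, showed the largest fall of the 12 members. It had 18.3 to 32.3 CPM with a median of 29.2 in transfected libraries, against 49.4 and 55.8 CPM in parental number 2 and number 1 (-0.97 ± 0.19, adjusted p = 0.00262). The gap between the groups was wider than the spread within either. NSDHL, a sterol C4 decarboxylase, had 35.6 to 54.3 CPM with a median of 42.7 in transfected libraries, against 59.7 and 48.2 CPM in parental cells (-0.35 ± 0.09, adjusted p = 0.0109), and its values overlapped. LBR, a lamin-binding protein that carries the same C14 reductase activity as TM7SF2, did not pass (-0.14 ± 0.09). Nor did CYP51A1 (0.25 ± 0.17), the C4 methyl oxidase MSMO1 (-0.24 ± 0.12), the ketosteroid reductase HSD17B7 (0.18 ± 0.11), the isomerase EBP (-0.14 ± 0.09), the desaturase SC5D (-0.20 ± 0.08) or DHCR7, which reduces 7-dehydrocholesterol (0.17 ± 0.11).

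Among the regulators INSIG2 and SREBF2 fell, and the INSIG pair differed in how firmly. INSIG2, which anchors the SCAP complex, had 27.1 to 32.2 CPM with a median of 28.5 in transfected libraries, against 36.1 and 38.7 CPM in parental number 2 and number 1 (-0.38 ± 0.07, adjusted p = 0.00119). SREBF2 had 240.1 to 276 CPM with a median of 258 in transfected libraries, against 306 and 284 CPM in parental cells (-0.19 ± 0.06, adjusted p = 0.0313, or 0.0950 with no filter on low counts). Neither gene's values overlapped. INSIG1, itself a strongly sterol-responsive SREBP target, had 82.7 to 155 CPM with a median of 126.5 in transfected libraries, against 233 and 148 CPM in parental number 2 and number 1. Its fitted fold change was larger (-0.66 ± 0.27) but did not pass without the replicate block (adjusted p = 0.101; 0.0359 with it), and its values overlapped, with parental number 1 among the number 1 transfected libraries. SREBF1 (-0.53 ± 0.20, adjusted p = 0.0643, or 0.0394 with the replicate block) and SCAP, the sterol sensor (-0.09 ± 0.06), did not pass. The block fits 1 difference between numbers for all groups, parental included. For INSIG1, number 2 minus number 1 was 0.652 in the parental pair and -0.824 to -0.267 in the transfected pairs. For SREBF1 it was 0.355 and -0.928 to 0.025, so for both genes the block fits poorly. The parental difference also lay outside the transfected range for the other falls gained with the block. It was 0.308 for MVD and 0.317 for SC5D, above transfected maxima of 0.26 and 0.287. For LBR it was -0.01, below a minimum of 0.09. For DHCR7, which rose with the block, it was 0.375, above a maximum of 0.319. For NPC1 it was -0.028, inside the range of -0.078 to 0.186.

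Of the transport genes, STARD4, a soluble carrier of sterol between membranes, had 65.4 to 103 CPM with a median of 87.5 in transfected libraries, against 138 and 124 CPM in parental number 2 and number 1 (-0.61 ± 0.13, adjusted p = 0.00450). NPC2, which binds cholesterol inside lysosomes, had 44.95 to 61.03 CPM with a median of 52.1 in transfected libraries, against 70.9 and 74.1 CPM in parental cells (-0.47 ± 0.07, adjusted p = 0.000396). Both fell without overlap. Its membrane partner NPC1 had 71.02 to 85.7 CPM with a median of 78.8 in transfected libraries, against 68.98 and 70.3 CPM in parental cells, higher in all 14 libraries, but it did not pass (0.19 ± 0.07, adjusted p = 0.0562). ABCA1 did not pass (-0.75 ± 0.53).

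In fatty acid synthesis SCD had 258 to 381 CPM with a median of 333 in transfected libraries, against 596 and 449 CPM in parental number 2 and number 1 (-0.68 ± 0.13, adjusted p = 0.00140), with no overlap. FASN (0.04 ± 0.07) and ACLY (0.02 ± 0.09), which supply its substrate, did not pass. In all, 9 members were lower in each of the 14 transfected libraries than in both parental libraries: PMVK, FDPS, LSS, TM7SF2, INSIG2, SREBF2, STARD4, NPC2 and SCD. The corresponding share of all genes tested was 14.9%. NPC1 was the 1 member higher in all 14, against 16.8% of all genes. The result depended on the parental libraries. Without parental number 2, 5 members fell and the median over members was -0.07, while 3215 of all genes passed in either direction, against 5744 with all libraries. The calls lost by edgeR were FDFT1 (-0.07, adjusted p = 0.604), SQLE (-0.02, 0.900), LSS (-0.17, 0.142), NSDHL (-0.19, 0.273) and SREBF2 (-0.15, 0.268), and also STARD4 (-0.53, 0.0720) and SCD (-0.47, 0.0620), whose fold changes stayed larger. Without parental number 1, 16 members fell, the median was -0.38 and 2498 of all genes passed. SREBF2 was then at -0.26 and did not pass (adjusted p = 0.0621).

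**Figure D2:**
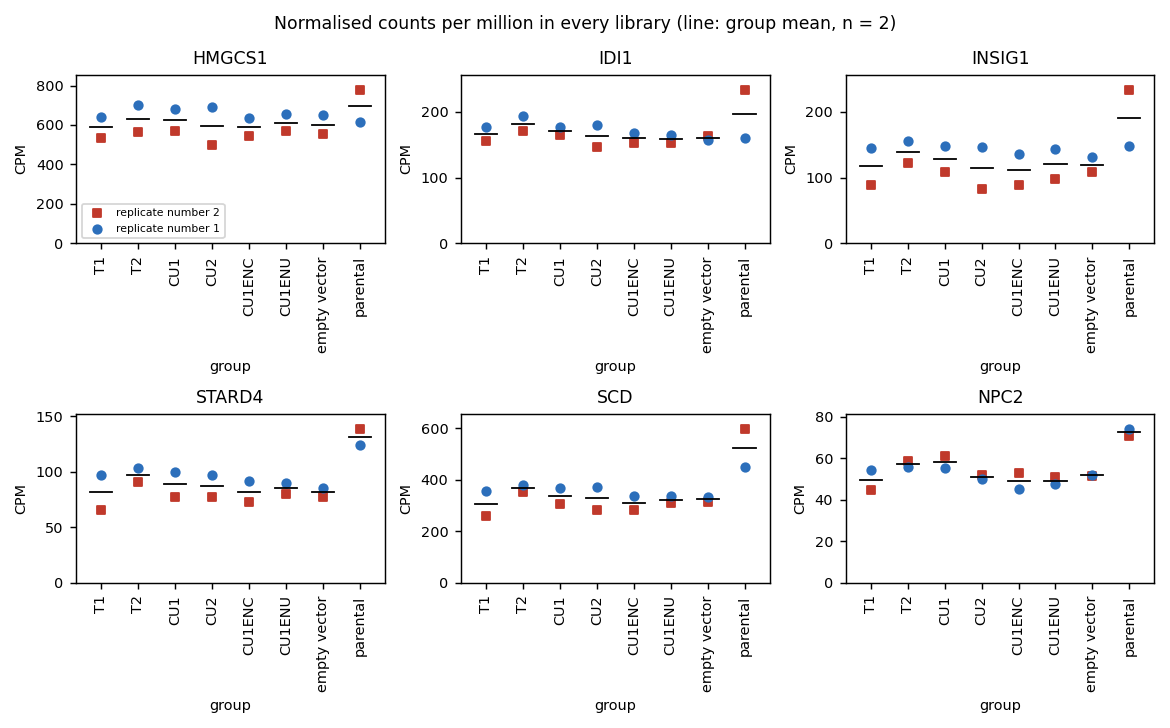
CPM (vertical axis, from 0) of 6 members in every library, by group along the horizontal axis, with the group mean as a line; squares are replicate number 2 and circles number 1. For STARD4, SCD and NPC2 both parental points lie above all transfected points, whereas for HMGCS1, IDI1 and INSIG1 the parental number 2 point stands alone at the top.

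Empty vector cells alone, set against the same parental libraries, gave 7 members that fell and 0 that rose by edgeR, while 6.6% of all genes fell and 9.41% rose. The median log2 fold change was -0.25 over the members. The 7 were PMVK, FDPS, TM7SF2, INSIG2, STARD4, NPC2 and SCD. SCD had 314 and 332 CPM in empty vector number 2 and number 1 (-0.69 ± 0.18, adjusted p = 0.0174), and STARD4 had 77.4 and 85.5 CPM (-0.69 ± 0.19, adjusted p = 0.0255). NPC2 had 51.5 and 52.1 CPM (-0.49 ± 0.10, adjusted p = 0.00602), and TM7SF2 had 26.1 and 29.5 CPM (-0.92 ± 0.27, adjusted p = 0.0392). The ranges given above for all transfected libraries include these empty vector libraries, so their lying inside those ranges is no separate comparison. With the replicate block, 13 members fell and the same 2, DHCR7 and NPC1, rose, and 6626 of all genes passed in either direction, against 3092 without it. The count depended on single libraries: it was 0 without empty vector replicate 2, 3 without empty vector replicate 1, 2 without parental replicate 2 and 9 without parental replicate 1. In these settings 1365, 1551, 1535 and 1436 of all genes passed, against 3092. Without empty vector replicate 2 the fold changes were -0.65 for SCD, -0.61 for STARD4, -0.48 for NPC2 and -0.83 for TM7SF2. TM7SF2 also did not pass with library totals alone (adjusted p = 0.0576), without T2 replicate 1 or 2 (0.0543 and 0.0545) or without CU1 replicate 1 (0.0511), and INSIG2 did not pass with no filter on low counts (0.0588).

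With 2 libraries a group, no member differed detectably between cells given a LINC01016 transcript and cells given the empty vector. For the mean of the 6 transcript groups against empty vector, 0 of 31 members passed by edgeR, 0 by DESeq2 and 0 at an unadjusted p under 0.05, and over all genes 0.0104% passed. Apart from ABCA1, fold changes lay between -0.12 and 0.09 on the log2 scale, and for 30 of the 31 members the 95% interval lay within a 2-fold change either way. For each transcript alone, 0 members passed by edgeR or DESeq2 (0.0104% of all genes passed in at least 1 transcript), and NSDHL in T1 (-0.29) and ABCA1 in CU2 (1.71) had an unadjusted p under 0.05. The widest single values apart from ABCA1 were that -0.29 in T1 and 0.25 in T2. In T2, 29 members had an interval within 2-fold, and in each of the other transcripts 30. An F-test over the 7 transfected groups passed 0 members, with 0 at an unadjusted p under 0.05 and 0 by DESeq2, and 0.00518% of all genes. These limits leave room for changes smaller than 2-fold. The intervals come from the fit without a term for replicate number. With the replicate block, 0 members passed as well.

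Members did differ between the replicate numbers of the transfected libraries. Within the 7 transfected groups, 8 members fell and 4 rose in number 2 relative to number 1 by edgeR, in a fit with group as a term, and 16.9% and 18.1% of all genes did so. Members that fell were HMGCS1, IDI1, FDPS, TM7SF2, INSIG1, SREBF1, STARD4 and SCD. Those that rose were CYP51A1, LBR, DHCR7 and ACLY. The member counts are near the shares over all genes, and the labels do not say what a number stands for.

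INSIG1 (chromosome 7, 155297776 to 155310235, plus strand) differed most. In number 2 it had 82.7 CPM in CU2, 88.6 CPM in CU1ENC, 89.3 CPM in T1, 97.5 CPM in CU1ENU, 108 CPM in CU1 and in empty vector and 122 CPM in T2. In number 1 it had 130.5 CPM in empty vector, 136 CPM in CU1ENC, 143 CPM in CU1ENU, 145 CPM in T1, 146.5 CPM in CU2, 147.5 CPM in CU1 and 155 CPM in T2. Every number 2 value was below every number 1 value (-0.53 ± 0.06, adjusted p = 7.77e-05). HMGCS1 (chromosome 5, 43287470 to 43313512, minus strand) had 499 to 572 CPM with a median of 556 in number 2, against 633 to 699 CPM with a median of 654 in number 1 (-0.27 ± 0.03, adjusted p = 2.18e-08). The ranges were again apart. SCD had 258 to 352 CPM with a median of 306 in number 2, against 332 to 381 CPM with a median of 354 in number 1 (-0.24 ± 0.04, adjusted p = 4.78e-05), and STARD4 65.4 to 90.4 CPM with a median of 77.5, against 85.5 to 103 CPM with a median of 97.2 (-0.30 ± 0.04, adjusted p = 1.68e-06). Both overlapped slightly, although number 2 was lower in each group. SREBF1 (-0.38 ± 0.09, adjusted p = 0.00215) and TM7SF2 (-0.40 ± 0.08, adjusted p = 0.000956) also fell, with number 2 lower in 6 of 7 groups. IDI1 (-0.14 ± 0.03) and FDPS (-0.11 ± 0.03) fell by less. FDPS no longer passed without T1 number 2 (adjusted p = 0.0506) or either CU2 library (0.0600 and 0.0517).

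In the opposite direction LBR had 350.3 to 396 CPM with a median of 367 in number 2, against 298 to 345 CPM with a median of 326 in number 1 (0.18 ± 0.03, adjusted p = 1.20e-05). ACLY had 467 to 489 CPM with a median of 483 in number 2, against 400.1 to 440.4 CPM with a median of 433 in number 1 (0.17 ± 0.03, adjusted p = 2.52e-05). For both genes the ranges were apart. DHCR7 rose by 0.20 ± 0.04 (adjusted p = 4.66e-05) with overlap, and CYP51A1, with its counting limit, by 0.28 ± 0.08 (adjusted p = 0.00911). CYP51A1 no longer passed without either CU1 library (adjusted p = 0.0561 and 0.0594). HMGCS1, FDFT1, INSIG1, STARD4 and SCD were lower in number 2 in 7 of 7 groups, as were 12.3% of all genes. LBR, DHCR7 and ACLY were higher in 7 of 7, as were 13.3% of all genes. In 7 of 7 transfected groups the number 2 library also had the lower interferon-stimulated sum and the lower mitochondrial share.

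**Figure D3:**
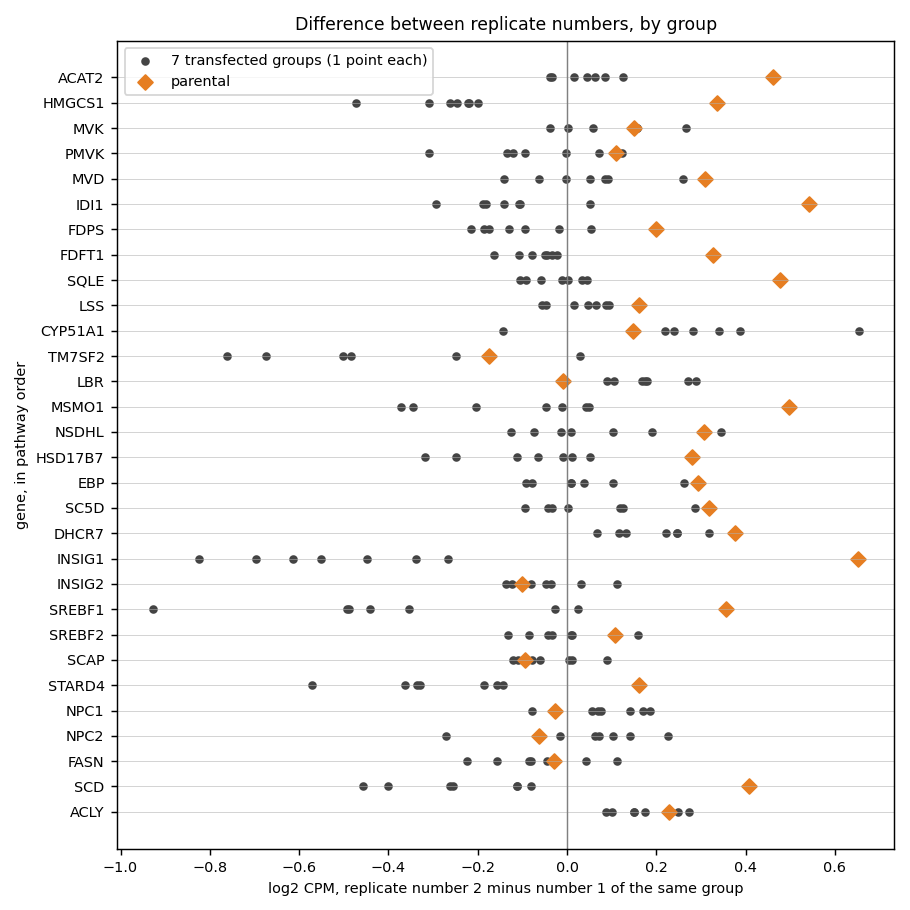
For each member except ABCA1, the log2 CPM of replicate number 2 minus that of number 1 in the same group: a dark point for each of the 7 transfected groups and an orange diamond for parental cells. For INSIG1 the 7 points run from -0.82 to -0.27 while the parental diamond is at 0.65, and in 17 of the 31 members the diamond lies above all 7 points.

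The parental pair was set beside these differences. Parental number 2 was higher than parental number 1 in 23 of 31 members, with a median difference of 0.23 on the log2 scale, whereas 50.3% of all genes were higher in it. In 17 of 31 members the parental difference lay above those of all 7 transfected groups, which held for 14% of all genes. INSIG1 was 0.65 higher in parental number 2, against transfected differences from -0.82 to -0.27 with a median of -0.55. HMGCS1 was 0.34 higher, against differences from -0.47 to -0.20. Of the 12 members that passed between numbers, TM7SF2 (-0.18), CYP51A1 (0.15), DHCR7 (0.38) and ACLY (0.23) had a parental difference of the same sign as the transfected fold change. These values come from 1 parental library of each number.

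A test added after these values were seen asked whether the difference between transfected and parental cells was itself unlike in number 2 and number 1. It uses the same pair differences that prompted it, so its p-values restate them and are no separate support. Its spread comes from the transfected pairs only. By edgeR, the difference was more negative in number 2 for 5 members and more positive for 0, among only 12 genes of 19316 that passed (0.0414% more negative, 0.0207% more positive). They were IDI1 (-0.68 ± 0.09, adjusted p = 0.000505), HMGCS1 (-0.61 ± 0.09, adjusted p = 0.000505), SQLE (-0.50 ± 0.09, adjusted p = 0.0116), ACAT2 (-0.43 ± 0.08, adjusted p = 0.0330) and SCD (-0.65 ± 0.11, adjusted p = 0.0357). The first 2 were also the first and second of all genes by p. The members were chosen with earlier results of these data known, so this ranking is no separate support either. IDI1, HMGCS1 and ACAT2 belong to the mevalonate arm. INSIG1 had the largest value (-1.19 ± 0.18) without passing (adjusted p = 0.102). Its adjusted p ranged from 6.56e-27 to 0.205 over the alternatives, and DESeq2 gave 2.37e-10. Without either CU1 library only 3 members passed, since ACAT2 (0.0950 and 0.0976) and SCD (0.0950 and 0.0976) were lost. ACAT2 also did not pass without either CU2 library (0.0540 and 0.0559), and SCD without either CU1ENC library (0.129 and 0.118).

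Within each number the pathway was also read on its own. In number 2, 20 members were lower in transfected than in parental cells and 1 was higher by edgeR, against 16.6% and 17.8% of all genes. In number 1, 9 were lower and 2 higher, against 15% and 16.3% of all genes. The medians over the members were -0.35 in number 2 and -0.05 in number 1, and over all genes -0.002 and 0.006. Each of these rests on 1 parental library, so the spread comes from the transfected pairs and the parental library is assumed to vary like them.

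In the mevalonate arm, 6 of 7 members passed as lower in number 2 and 2 of 7 in number 1. IDI1 had 147 to 171 CPM with a median of 155.5 in the transfected number 2 libraries, against 233.5 CPM in parental number 2 (-0.57 ± 0.06). It had 157 to 193 CPM with a median of 177 in the transfected number 1 libraries, against 160.5 CPM in parental number 1 (0.11 ± 0.07, not passing). HMGCS1 likewise was lower in number 2 (-0.51 ± 0.06, adjusted p = 3.43e-08) and not in number 1 (0.11 ± 0.06, adjusted p = 0.197). From squalene to lanosterol, 3 of 3 members passed in number 2 and only LSS in number 1, where SQLE was at 0.00 ± 0.06. From lanosterol on, TM7SF2, MSMO1, NSDHL and SC5D passed as lower in number 2. In number 1, TM7SF2 and LBR were lower while HSD17B7 (0.38 ± 0.13) and DHCR7 (0.27 ± 0.07) were higher. By DESeq2, HSD17B7 (adjusted p = 0.0814) and LSS (0.108) did not pass in number 1.

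Among the regulators INSIG1 stood furthest apart between the numbers. In number 2 it had 82.7 to 122 CPM in transfected libraries, against 233 CPM in parental (-1.24 ± 0.12, 0.43 of the parental level, adjusted p = 3.03e-05). In number 1 it had 130.5 to 155 CPM, against 148 CPM, a log2 fold change of -0.05 ± 0.13. INSIG2 was close to alike in both, at -0.34 ± 0.10 and -0.41 ± 0.09, and passed in each. SREBF1 (-0.90 ± 0.16) and SREBF2 (-0.25 ± 0.06) passed in number 2 only, and SCAP in neither. Being past the threshold in 1 number does not show a difference between them: for INSIG1, SREBF1 and SREBF2 the test of the difference did not pass by edgeR (adjusted p = 0.102, 0.455 and 0.851).

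Of the 20 members lower in number 2, 8 were also lower in number 1, where they made up 8 of 9: PMVK, FDPS, LSS, TM7SF2, INSIG2, STARD4, NPC2 and SCD. The size was similar for NPC2 (-0.42 ± 0.09 in number 2 and -0.53 ± 0.09 in number 1) and for TM7SF2 (-1.10 ± 0.15 and -0.88 ± 0.14). For SCD it was -0.99 ± 0.08 in number 2 and -0.34 ± 0.08 in number 1, and for STARD4 -0.84 ± 0.08 and -0.38 ± 0.08, of which only the SCD difference passed its test. NPC1 was higher in number 2 (0.24 ± 0.07, adjusted p = 0.0104) and did not pass in number 1 (0.13 ± 0.07).

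**Figure D4:**
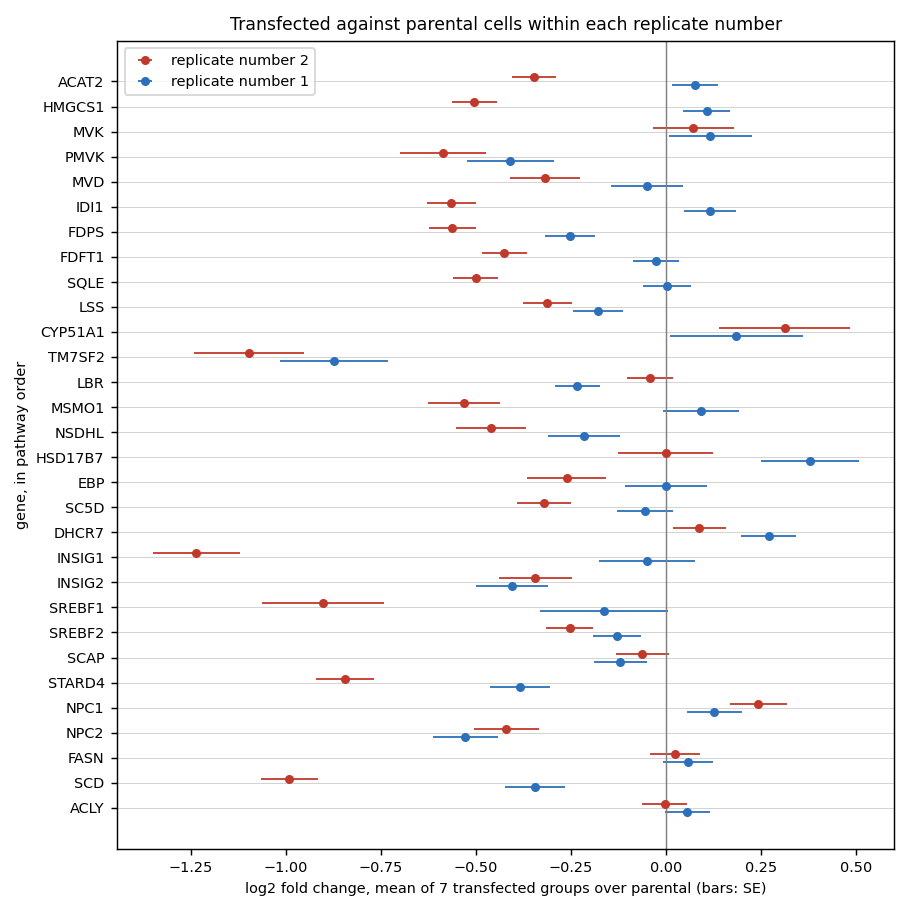
Log2 fold change of the mean of the 7 transfected groups over parental (horizontal axis, bars SE from edgeR) for each member except ABCA1, within replicate number 2 (red) and within number 1 (blue). INSIG1 is at -1.24 in number 2 and -0.05 in number 1, while for INSIG2, NPC2 and TM7SF2 both points lie on the same side of 0.

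A further 45 sterol and lipid genes outside the 31 were all tested. In transfected relative to parental cells, 16 fell and 2 rose by edgeR, against 14.3% and 15.4% of all genes. The falls of lowest p were TMEM97, a sterol-responsive endoplasmic reticulum protein (-0.64 ± 0.07, 96.8 CPM as transfected median, against 156 and 144 CPM in parental number 2 and number 1), FADS2, a fatty acid desaturase (-0.85 ± 0.12), ERLIN2, which binds the SCAP complex (-0.41 ± 0.06), and RNF145, a sterol-linked ubiquitin ligase (-0.47 ± 0.07). Those that rose were MYLIP, a ubiquitin ligase of lipoprotein receptors (0.57 ± 0.08), and NR1H3, which encodes the sterol-sensing factor LXR alpha (0.44 ± 0.12). In empty vector against parental cells, 11 fell, led by TMEM97 (-0.69 ± 0.10), ERLIN2, RNF145 and FADS2, and MYLIP rose (0.41 ± 0.10). Over all genes 6.6% fell and 9.41% rose in that comparison. Between number 2 and number 1 of the transfected groups, 13 rose, among them NUS1 of dolichol synthesis, the malic enzyme ME1 and the cytochrome b5 reductase CYB5R3. Another 9 fell, led by ACACA, acetyl-CoA carboxylase (-0.33 ± 0.03), the desaturases FADS2 and FADS1 and the sterol exporter ABCG1. Over all genes 18.1% rose and 16.9% fell between the numbers. For the difference between transfected and parental cells in number 2 minus that in number 1, 0 of the 45 passed by edgeR. At an unadjusted p under 0.05 there were 8 of the 45, and 1334 of all 19316 genes.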

How the data were processed

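The authors deposited raw counts per gene, as whole numbers with no normalization. Per the file headers, featureCounts 2.0.1 counted paired reads with strand option 2 over exons of the Ensembl release 101 annotation, and no option for reads in several genes or places is recorded. Per the submitters' processing notes, HISAT2 and DESeq2 were used with GRCh38.p13, with settings not given in the sources used here. Libraries were grouped and numbered by title. The 31 members, the role groups and the list of 45 further genes were chosen with earlier results of these data known. The interferon list was added after values were seen. So were the tests of transfected against parental cells within each replicate number and between the numbers.

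Differential expression was tested with edgeR 4.0.16 (R 4.3.3): filterByExpr (minimum count 10, total 15; 19316 genes), TMM factors 0.974 to 1.03, robust quasi-likelihood fits of 8 group means over 16 libraries (8 residual degrees of freedom) and Benjamini-Hochberg adjusted p under 0.05 over all genes. SE was taken as log2 fold change over the root of the F statistic, without sign. Number 2 against 1 used the 14 transfected libraries with group as a term (6 degrees of freedom), and the added model had group, number and a parental by number term over 16 libraries (6). TPM used exonic lengths from the table. All 31 members are named; of the 45 further genes, up to 4 passing genes of lowest p per direction, apart from 1 that is not reported here. Promoters are RefSeq (GRCh38.p14).

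Deviations from the group mean were correlated between same-numbered libraries in 28 of 28 pairs of groups (r 0.162 to 0.441, median 0.248). No label says that libraries are paired by number. The main fits of group means had no term for replicate number. On the ground of the correlation, number was fitted in the replicate block, an alternative, and in the tests by replicate number. The block left 7 degrees of freedom and a common dispersion of 0.00436, against 0.0184 without it. Between replicates of a group, chi-square per degree of freedom was 6.76 to 18.9, above sampling noise. DESeq2 1.42.0, its size factors, library totals alone, no filter, the replicate block and leaving out each library were the alternatives.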

Additional observations from a re-analysis of the deposited data

Results flagged for a closer look

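The difference between transfected and parental cells was unlike in the 2 replicate numbers for 5 members by edgeR, in a test added after values were seen. Number 2 minus number 1, on the log2 scale, it was -0.68 ± 0.09 SE for IDI1 (adjusted p = 0.000505), -0.61 ± 0.09 for HMGCS1 (0.000505), -0.50 ± 0.09 for SQLE (0.0116), -0.43 ± 0.08 for ACAT2 (0.0330) and -0.65 ± 0.11 for SCD (0.0357). Each value rests on 1 parental library of each number, so that library and the replicate number cannot be told apart. The test restates the pair differences that prompted it.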

How the results depend on the processing

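No member's fold change reversed a call under any alternative. Of the single-member results, 2295 kept their side of the threshold, 72 passed only under an alternative and 47 were lost under one. With the replicate block, empty vector against parental gave 13 members down and 2 up (7 and 0 without it), and transfected against parental 17 down and 2 up (12 and 0); the block passed 0 members between transcripts and empty vector, and it changed no other count. With library totals alone, 1 member was up in transfected cells. For the difference between the replicate numbers, 9 members were down with no filter on low counts and 8 with DESeq2, against 5. Within number 1, 1 member was up with no filter and 1 with DESeq2, against 2. Leaving out single libraries gave 0 to 9 members down for empty vector against parental, 5 to 16 down and 0 to 1 up for transfected against parental, 7 to 9 down and 3 to 5 up between replicate numbers, and 3 to 6 down for the difference between numbers. The causes were not tested. Calls over all genes also moved with the setting and with the library left out. For the tests by replicate number, they were counted in the main setting only. These member counts thus cannot be told apart from shifts of the whole test. With 2 libraries a group, and 1 parental library of each number, what could be detected differed by gene with its SE.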
